A study of Mus musculus with 8 samples.

Results

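Pmp22 and Art3, 2 of the 7053 genes named on the arrays, were followed through every probe that the platform annotation gives to either symbol: 1 probe for Pmp22 and 2 for Art3, 3 of the 9232 probes in the value table. The samples were extensor digitorum longus (EDL) muscle, a mainly fast-twitch muscle at the front of the shin, with 4 samples labelled sod-/- and 4 labelled wild type, all aged 7 months, each on 1 Illumina bead array. The series' title places the study in lasting oxidative stress: Sod1 encodes the copper-zinc superoxide dismutase of the cytosol. The labels name no other allele, agent, strain or sex, and do not say whether each sample is a different animal. The p-values therefore cover only the variation among these samples, which may be technical. Sod1 itself was not analysed here, and the labels could not be checked by its level.

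PMP22 is a small membrane protein that crosses the membrane several times and is a main component of the compact myelin made by Schwann cells, the glia of peripheral nerve. Extra copies of the human gene cause the most frequent inherited form of Charcot-Marie-Tooth neuropathy, and loss of a copy causes a neuropathy with pressure palsies. The gene is also known as Gas3, because growth-arrested fibroblasts switch it on, so its transcript does not belong to Schwann cells alone. ART3 is a cell surface protein held by a lipid anchor and related to the ecto-ADP-ribosyltransferases, enzymes that attach ADP-ribose to other proteins. Human ART3 lacks the active site residues of the enzymatically active relatives, and its transcript is found in testis and skeletal muscle. The muscle acetylcholine receptor, several of whose subunit genes are switched on along the whole fibre when a muscle loses its nerve, is given beside both genes as context.

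In RefSeq (GRCm38.p6), Pmp22 spans chr11:63128982-63159547 and overlaps no other gene. Art3 spans chr5:92331799-92414628 and overlaps Cxcl10, Cxcl11 and Gm2673, for which the annotation used here lists no probe. Both genes have several starts, 4 windows for Pmp22 and 3 for Art3 in the RefSeq table. Probe sequences and positions were not used here, so each probe's value cannot be assigned to a start. Pmp22 is known to use separate promoters in myelinating Schwann cells and in other tissues, and the 250 bases before its most upstream start and before its start number 3 are shown because they differ in base composition. Capitals mark CG pairs, of which the first window holds 3 and the second 14, against a median of 6 in the 32851 windows of the same length in the table. Their GC content was 48.8% and 64.8%, and the median window had 52.4%. The windows before starts 2 and 4, which are not shown, had 61.2% and 73.6%, with 14 and 27 CG pairs. No window was assigned to a cell type here. Both lines read 5′ to 3′ on the plus strand, at chr11:63128732-63128981 and chr11:63132319-63132568.
Pmp22 start 1: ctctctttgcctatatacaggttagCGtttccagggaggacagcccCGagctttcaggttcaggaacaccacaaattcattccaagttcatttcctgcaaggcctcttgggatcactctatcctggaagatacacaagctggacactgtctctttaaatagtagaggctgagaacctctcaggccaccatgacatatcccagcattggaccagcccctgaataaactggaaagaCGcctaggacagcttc
Pmp22 start 3: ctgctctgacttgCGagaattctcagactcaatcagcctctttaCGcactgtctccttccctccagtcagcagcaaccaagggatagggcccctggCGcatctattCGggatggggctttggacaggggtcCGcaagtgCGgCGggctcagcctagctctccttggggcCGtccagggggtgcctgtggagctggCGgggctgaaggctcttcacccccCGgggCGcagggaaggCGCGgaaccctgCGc
Start 2 of Art3 is shown because it lies far inside the gene, at chr5:92386637-92386886 for its 250 upstream bases on the plus strand. Capitals mark the letters TATAAA, searched on both strands together with CANNTG, the E-box read by myogenic factors, which reads as CANNTG on either strand. TATAAA occurs 2 times, the nearer copy ending 25 bases before the start. It is present in 12.4% of all windows of that length. CANNTG is in 66.2% of the windows and is not in this window. It occurs 2 times before start 1 of Art3, where TATAAA matches 3 times on the 2 strands, with overlap.
Art3 start 2: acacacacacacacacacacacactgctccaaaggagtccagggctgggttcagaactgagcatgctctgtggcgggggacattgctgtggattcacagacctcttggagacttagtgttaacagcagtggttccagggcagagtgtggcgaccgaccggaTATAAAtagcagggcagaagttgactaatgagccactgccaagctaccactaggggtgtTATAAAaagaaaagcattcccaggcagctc

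All 8 columns of the deposited log2 intensities have the same distribution, with a median of 6.93, so a probe is read against that median. The skeletal muscle fibre list had 10 measured genes, with a mean level between 13.69 and 13.86 in every array, near the highest value of 14.19. A pair of arrays stood apart over the 4698 tested probes, those above the array median in at least 4 of the 8 arrays. Knockout replicate 2 had a mean Pearson r of 0.924 with the other knockouts and 0.940 with the wild types, and wild-type replicate 2 had 0.920 with the other wild types and 0.906 with the knockouts. Across the other arrays the mean r with the own genotype ran from 0.937 to 0.952. These correlations are across probes, which are not independent replicates. Results that rest on those arrays are given with and without them.

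Pmp22 was lower in 3 of the 4 knockout arrays than in any wild-type array, and the fourth knockout array stood among the highest wild types. Its log2 intensity was 7.31, 8.57, 6.82 and 6.87 in knockout replicates 1 to 4. In the wild-type replicates 1 to 4 it was 8.35, 7.62, 8.45 and 8.58. The groups therefore overlapped through knockout replicate 2 alone. Groups without overlap and with the knockout lower made up 2.72% of tested probes, and no member was among them. Within the arrays, knockout replicates 3 and 4 placed the probe at percentile 48.1 and 49.0 of all probes, just under the median, and knockout replicate 1 at 55.6. In bulk muscle, fewer cells of a type and less RNA per cell cannot be told apart. Knockout replicate 2 placed it at 72.8, and the wild types at 60.1 for replicate 2 and from 70.1 to 73.0 for the other 3.

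The mean Pmp22 level was 8.25 ± 0.43 (SD, n = 4) in wild-type muscle and 7.39 ± 0.82 (SD, n = 4) in knockout muscle, a difference of -0.86 log2 units (SE 0.39), or 1.81-fold. The difference did not pass the test over all probes: its limma p was 0.0522 and its Benjamini-Hochberg adjusted p 0.530. An exact permutation test with all 70 arrangements of the genotype labels gave a two-sided p of 0.114, where the smallest possible is 0.0286. None of the tested probes passed at an adjusted p under 0.05, which was 0% of 4698. At an unadjusted p under 0.05, 4.6% of them were lower and 4.75% higher in the knockout. By size, 28 probes, 0.596% of those tested, were lower in the knockout by at least as much as Pmp22, and by p it ranked at 459. Its spread was wide as well: the knockout SD exceeded that of 95.7% of tested probes, and the wild-type SD that of 76.4%.

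**Figure D1:**
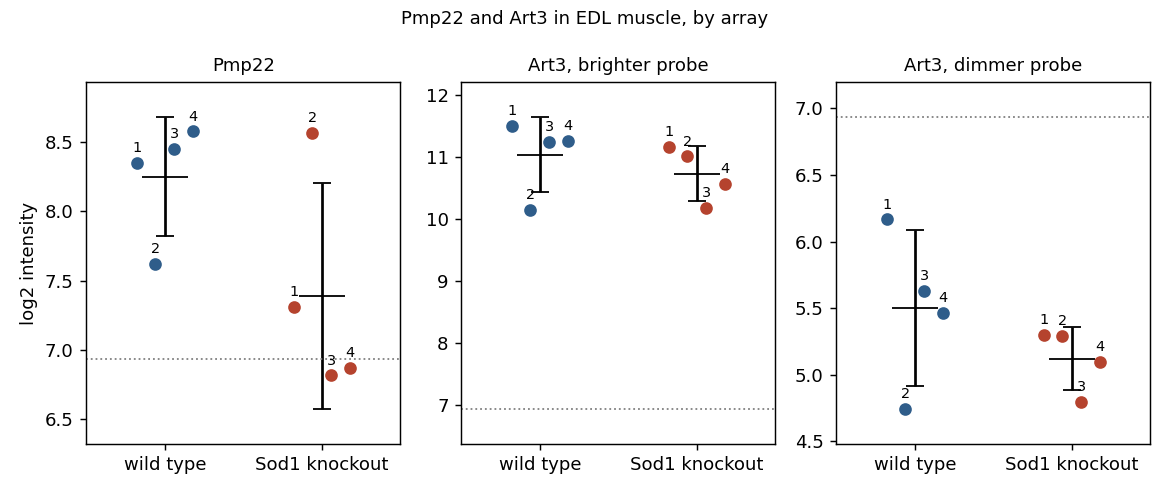
Log2 intensity of the Pmp22 probe and of the 2 Art3 probes (vertical axis, own scale in each panel) in wild-type and Sod1 knockout EDL, 1 point per array with its replicate number, bars at the mean ± SD of 4 arrays, and a dotted line at the array median of 6.93. Pmp22 in knockout replicate 2 lies at 8.57 beside the wild types, while the other knockouts lie at 6.82 to 7.31, and wild-type replicate 2 is the lowest wild type in each panel.

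Leaving out the arrays that stood apart changed the size of the Pmp22 difference and, with both left out, the call. Without knockout replicate 2 the knockout mean was 7.00 ± 0.27 (SD, n = 3) and the difference -1.25 (SE 0.26), or 2.38-fold. The limma adjusted p was then 0.0902, so it still did not pass, and Pmp22 ranked at 53 by p. The 3 remaining knockout values lay below all 4 wild-type values, which held for 7.68% of tested probes in that direction. Without both arrays numbered 2, Pmp22 was 7.00 ± 0.27 (SD, n = 3) against 8.46 ± 0.11, a difference of -1.46 (SE 0.19), or 2.75-fold, with a limma adjusted p of 0.00989. Both arrays were singled out by their measured values. Wild-type replicate 2 was the lowest wild type for Pmp22, at 7.62. Leaving it out widened the difference and took the wild-type SD from 0.43 to 0.11. Knockout replicate 2 was singled out because its measured values resemble the wild types. Leaving out either array thus depends on the outcome, and these p-values are no independent evidence of a genotype difference. Over all other arrays the mean r of knockout replicate 2 was 0.933, and that of knockout replicate 3, which was kept, was 0.925. Without both arrays numbered 2, Pmp22 was 1 of 11 probes called lower, 0.234% of those tested, beside 48 called higher, or 1.02%. No wild-type array other than replicate 2 lay below 8.35.

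**Figure D2:**
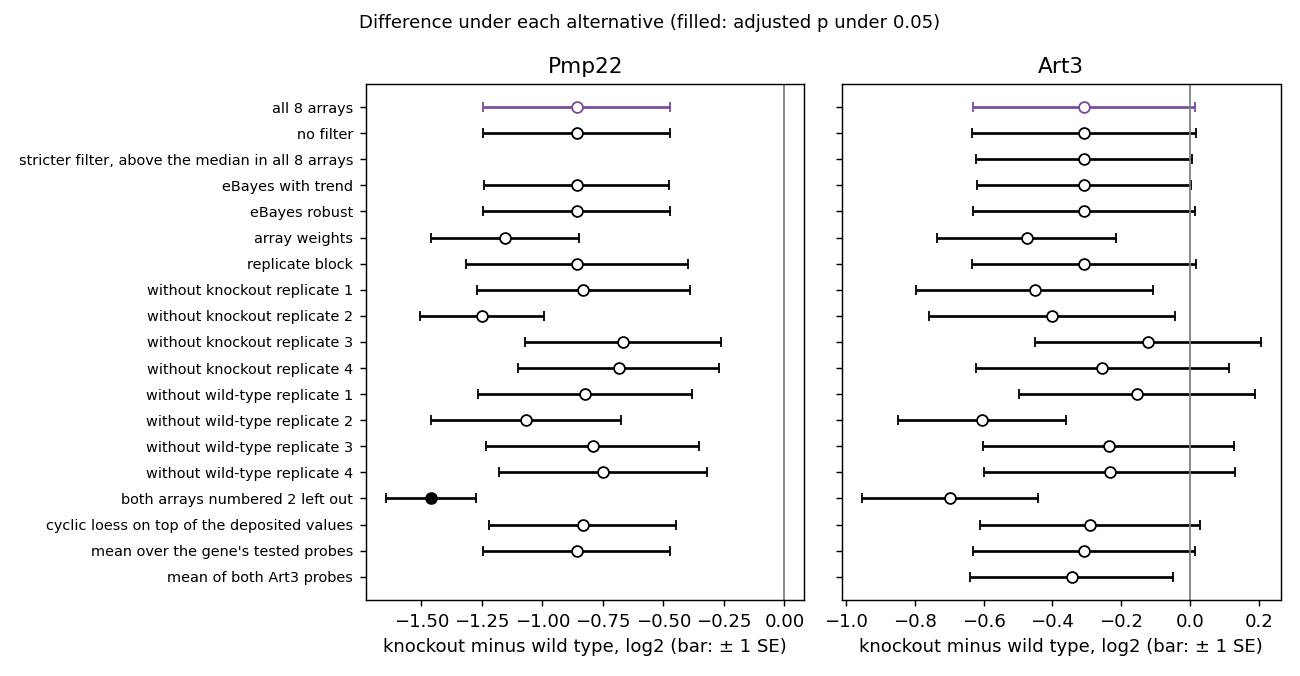
Difference between knockout and wild type on the log2 scale (horizontal axis, point with ± 1 SE) for Pmp22 and the brighter Art3 probe under each way of fitting, with a filled point where the adjusted p was under 0.05. Every difference is below 0, from -1.46 to -0.67 for Pmp22 and from -0.70 to -0.12 for Art3, and the single filled point is Pmp22 without both arrays numbered 2.

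Art3 differed less between the genotypes, and the arrays of each genotype were spread as widely as the genotypes differed. The brighter probe stood at 11.15, 11.00, 10.17 and 10.56 in knockout replicates 1 to 4. In the wild-type replicates 1 to 4 it stood at 11.49, 10.14, 11.24 and 11.25. The lowest array of all was thus wild-type replicate 2 and the next lowest knockout replicate 3, while the 3 highest were wild types. The level lay between percentile 88.4 and 95.2 of all probes in every array. The mean was 11.03 ± 0.60 (SD, n = 4) in wild-type muscle and 10.72 ± 0.45 (SD, n = 4) in knockout muscle, a difference of -0.31 (SE 0.32), or 1.24-fold. The limma adjusted p was 0.785, the exact permutation p 0.40 (two-sided), and 15.5% of tested probes were lower by at least as much. Its wild-type SD exceeded that of 90.3% of tested probes.

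The dimmer Art3 probe followed the brighter one. It stood at 5.30, 5.29, 4.80 and 5.09 in knockout replicates 1 to 4. In the wild-type replicates 1 to 4 it stood at 6.17, 4.75, 5.63 and 5.47. It was below the array median on all 8 arrays, at percentile 15.1 to 37.8, and so was not among the tested probes. In a fit over all 9232 probes without a filter it differed by -0.38 (SE 0.28, adjusted p 0.664), in the direction of the brighter probe. Over the 8 arrays the probes correlated at Pearson r 0.921 (exact permutation p 0.0001984) and Spearman rho 0.976 (exact permutation p 0.0003968), the 1 relation computed. Without the arrays farthest from the brighter probe's median, knockout replicate 3 and wild-type replicate 2, r was 0.848 over 6 arrays. Both probes target the same gene, so they are not independent members.

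The Art3 difference also depended on wild-type replicate 2. The other 3 wild types lay between 11.24 and 11.49 on the brighter probe, above all 4 knockouts at 10.17 to 11.15. Without that array the difference was -0.60 with a limma adjusted p of 0.495. Without both arrays numbered 2 it was -0.70 (SE 0.25, adjusted p 0.262), and it did not pass in either case. The difference shrank to -0.12 when knockout replicate 3 was left out, and to -0.15 when wild-type replicate 1 was.

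Set side by side, Pmp22 and Art3 were both low in wild-type replicate 2 and in knockout replicates 3 and 4, and both high in the other 3 wild types. They parted in knockout replicate 1, where Pmp22 was below every wild type and Art3 at 11.15 was the highest knockout. In knockout replicate 2 Pmp22 was above 3 of the 4 wild types, and Art3 at 11.00 was above 1. Pmp22 levels lay in a lower range, from 6.82 to 7.62, and an upper range, from 8.35 to 8.58, so no correlation is given between the genes.

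Probes were present for 3 of the 5 receptor subunit genes listed. The alpha and beta subunits showed the same 3 knockout arrays apart from the rest, in the opposite direction. Chrna1, the alpha subunit that carries most of the acetylcholine binding site, had on its brighter probe 12.25, 8.98, 11.62 and 11.98 in knockout replicates 1 to 4. The wild types ran from 9.24 to 9.43. Knockout replicate 2, the knockout array of highest Pmp22, was the lowest of all arrays for Chrna1. Its other probe differed by 2.09 and was likewise lowest of all arrays in knockout replicate 2, at 8.01. Chrnb1, the beta subunit, was 9.61, 8.11, 9.30 and 9.27 in the knockouts and between 7.87 and 8.32 in the wild types. Chrne, the epsilon subunit of the adult receptor, was above the median in 1 array and stood at 7.05, 5.05, 6.63 and 6.46 against 5.16 to 6.43. Fitted over all probes without knockout replicate 2, Chrne had a limma adjusted p of 0.191 and did not pass. Without knockout replicate 2 both Chrna1 probes (adjusted p 0.000749 and 0.000823) and the Chrnb1 probe (0.0284) passed in limma, where 0.702% of tested probes were called higher and 0.0639% lower, and Pmp22 did not. The same limit on leaving out that array holds for these calls and for those of Ncam1 and Uchl1.
Wild-type replicate 2, where Pmp22 and Art3 were lowest among the wild types, was at 9.24 for the brighter Chrna1 probe and 7.87 for Chrnb1, also the lowest wild type for each, with the next lowest at 9.34 and 8.13. On the other Chrna1 probe it was at 8.34, and the lowest wild type was replicate 3 at 8.19.

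**Figure D3:**
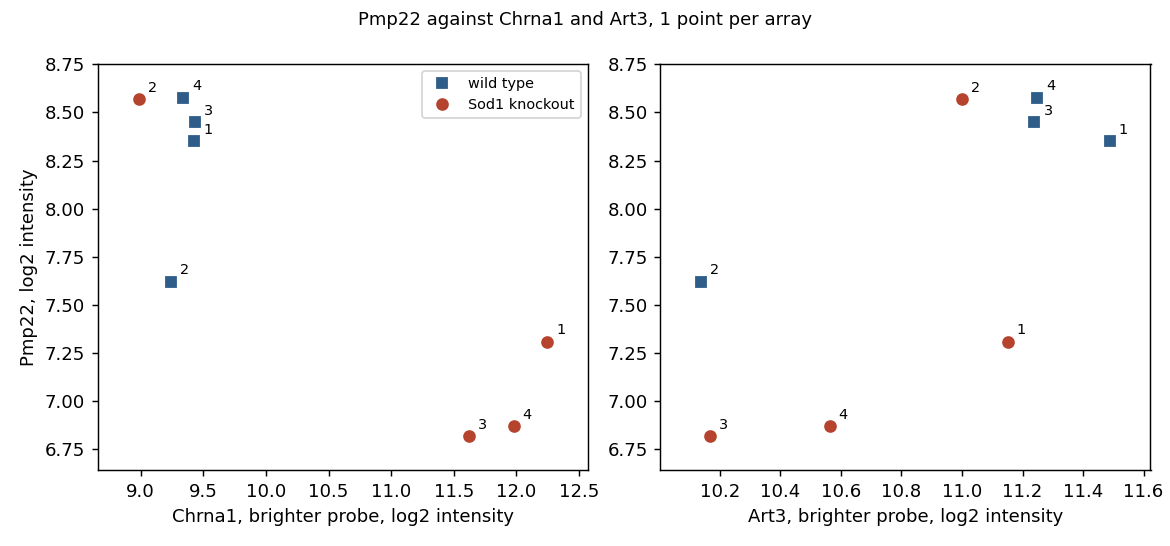
Log2 intensity of Pmp22 (vertical axis) against the brighter probe of Chrna1 (left) and of Art3 (right), 1 point per array with its replicate number, squares for wild type and circles for Sod1 knockout. Knockout replicates 1, 3 and 4 combine Chrna1 at 11.62 to 12.25 with Pmp22 at 6.82 to 7.31, and knockout replicate 2 lies with the wild types at 8.98 and 8.57.

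The label of a Schwann cell gene could be checked only in part. Of the 30 Schwann cell and myelin genes listed, 5 had a probe; the others were not analysed here. Mbp, the myelin basic protein, Cnp, an enzyme of myelinating glia, and Cldn19, a claudin of the Schwann cell sheath, were below the array median on all 8 arrays. They differed by -0.08, -0.03 and -0.20, and Pmp22 was the single tested member. The measured values therefore do not tie the Pmp22 level to Schwann cells, and the part of myelin in its difference was not tested. Ncam1, an adhesion molecule of non-myelinating Schwann cells that denervated fibres also make, was 9.32, 5.95, 8.71 and 9.03 in knockout replicates 1 to 4 and between 5.35 and 6.65 in the wild types. It was above the median in 3 arrays and was not tested with the filter. Fitted over all probes it had an adjusted p of 0.287, and of 0.00337 without knockout replicate 2, where 0.607% of all probes were called. Of the 5 genes, Pmp22 included, 4 had a lower and 1 a higher mean in the knockout, with a median difference of -0.08. Over all probes 52.5% were lower and the median was -0.02. Their mean level ran from 5.97 to 6.54 in the knockouts and from 5.88 to 6.12 in the wild types.

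Genes listed for the axon did not share the Pmp22 direction, and which cells made their transcripts was not tested. Of 13 listed, 3 had a probe and all 3 had higher means in the knockout, with a median difference of 0.89. Uchl1, a ubiquitin hydrolase abundant in neurons, was 8.64, 4.94, 8.87 and 8.94 in knockout replicates 1 to 4 and between 4.34 and 6.53 in the wild types. Its adjusted p over all probes was 0.354, and 0.0125 without knockout replicate 2. Mapt, the microtubule protein tau and the tested gene of the list, was 9.43, 9.39, 9.07 and 9.22 in the knockouts and between 8.18 and 8.73 in the wild types, a difference of 0.89. The dimmer Mapt probe differed by 0.61. Tubb3, the tubulin of neurons, differed by 0.08 at levels below the median on every array. Uchl1 thus stood high in the 3 knockout arrays in which Pmp22 was low, whereas Mapt stood high in all 4, replicate 2 included. Of the 14 neuromuscular junction genes 7 had a probe, the receptor subunits among them, and 6 of the 7 had higher means in the knockout, with a median difference of 0.56. Lrp4, the receptor for agrin on the muscle side, differed by 1.21 with all 8 arrays below the median, and Agrn itself by -0.25. Lrp4 was 5.68, 6.82, 6.77 and 6.33 in knockout replicates 1 to 4 and between 4.79 and 5.70 in the wild types. Knockout replicate 2 was thus its highest array, unlike for the receptor subunits. Rapsn, which clusters the receptor, differed by 0.19 on its brighter probe and by -0.14 on its dimmer one, which was above the median in 1 array. Without both arrays numbered 2 the brighter Rapsn probe differed by -0.23. None of these passed with all arrays.

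Fibroblasts also make Pmp22, and their markers were set beside it. Of 12 listed fibroblast genes 6 had a probe, and 5 of the 6 had lower means in the knockout, with a median difference of -0.10. Without knockout replicate 2 all 6 were lower, with a median of -0.33, and without both arrays numbered 2 the median was -0.60. Over all probes the median was -0.02 in each of those fits. None of the 6 passed in any of the 3 fits. Knockout replicate 2 had their highest mean level, 7.93, and the lowest were 6.65 in knockout replicate 1 and 6.71 in wild-type replicate 2. Mfap5, a microfibril protein, was 4.04, 6.10, 4.84 and 4.94 in knockout replicates 1 to 4 and 4.96, 4.81, 5.95 and 6.40 in the wild types. Dpt, a matrix protein of connective tissue, was 6.71, 8.09, 6.99 and 6.05 against 7.16, 6.45, 7.00 and 7.36. In both genes knockout replicate 2 was the highest knockout array and wild-type replicate 2 the lowest wild type, as for Pmp22. Among the 6 genes 2, Mfap5 being 1 of them, were below the array median on all 8 arrays. The order of the arrays numbered 2 held in 4 of the 6, both of these included, and in 9.11% of all probes. It did not hold for the brightest probe of Dcn, the matrix proteoglycan decorin. That probe was 12.05, 12.27, 12.35 and 12.10 in knockout replicates 1 to 4 and 12.18, 12.58, 12.64 and 12.34 in the wild types. On the next Dcn probe the lowest wild type was replicate 1, at 9.02. The order did hold on the dimmest Dcn probe, below the median on every array, with knockout replicate 2 at 6.84 and wild-type replicate 2 at 5.55. For Pdgfra, a growth factor receptor, it did not hold, as the lowest wild type was replicate 1 at 7.13. The part of connective tissue in the Pmp22 difference was not tested.

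The endothelial list had 8 of 9 genes with a probe, all with lower means in the knockout (median -0.27), and 7 of 8 lower without knockout replicate 2. Their mean level ran from 7.15 to 7.62 in the knockouts and from 7.34 to 7.84 in the wild types. Tek, the angiopoietin receptor, had the smallest p of the list. It was 5.78, 5.96, 5.55 and 5.96 in knockout replicates 1 to 4 and between 6.23 and 6.42 in the wild types, below the array median throughout, with an adjusted p of 0.373 over all probes. Tie1, a related receptor kinase, differed by -0.66 and Vwf, the von Willebrand factor, by -0.49, and neither passed. The macrophage list had 5 of 11 genes with a probe, each below the median on all arrays. Of these 4 had higher and 1 a lower mean in the knockout, with a median difference of 0.36. Their mean level ran from 4.491 to 6.003 in the knockouts and from 4.388 to 6.035 in the wild types. The satellite cell list had 3 of 7 genes, 1 higher and 2 lower, and the adipocyte list 1 of 7, Fabp4, at -0.56. The part of these cells in the differences of Pmp22 and Art3 was not tested.

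**Figure D4:**
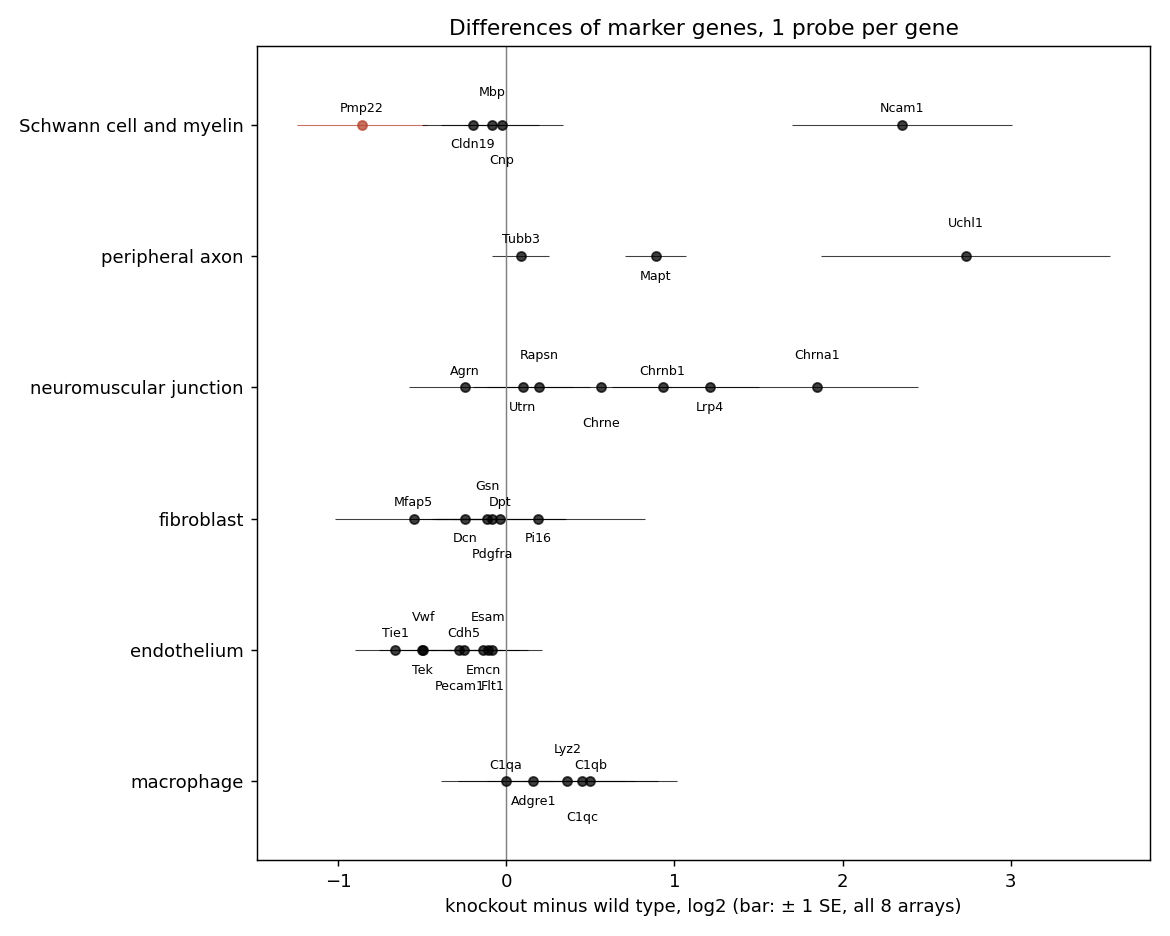
Difference between knockout and wild type on the log2 scale (horizontal axis, point with ± 1 SE from a limma fit of all probes and 8 arrays) for each measured gene of 6 marker lists, 1 probe per gene, with Pmp22 in red. Pmp22 at -0.86 lies lowest, Ncam1, Uchl1 and Chrna1 lie at 2.35, 2.73 and 1.85, and Mbp, Cnp and Cldn19 lie within 0.20 of 0.

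Relatives of both genes were measured on the same arrays. In the PMP22 family, Emp1, Emp2 and Emp3, the epithelial membrane proteins, differed by -0.11, 0.79 and 0.04. Emp3 was 6.37, 8.65, 8.11 and 7.34 in knockout replicates 1 to 4 and between 6.94 and 8.36 in the wild types, with replicate 2 the highest knockout and the lowest wild type, but replicate 3 was high as well. Emp1 was highest in wild-type replicate 4, at 9.06, with the other wild types at 6.81 to 7.22. Emp2 was below the median on every array. Of the 6 family members listed 4 had a probe, Pmp22 itself included. There were 2 with higher and 2 with lower means, Pmp22 among the lower, and the median difference was -0.03.

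The cell surface ADP-ribosyltransferases had 3 measured genes of 6 listed, Art3 among them. All 3 had lower means in the knockout, and their median of -0.31 is Art3's own difference. Art1, the arginine-specific enzyme of skeletal muscle, was 11.03, 10.39, 10.67 and 10.81 in the knockouts and 10.55, 10.84, 11.23 and 10.84 in the wild types, a difference of -0.14. Wild-type replicate 2, the lowest array for Art3, was mid-range for Art1. Art5, another member expressed in muscle and testis, was 6.97, 7.14, 6.98 and 7.94 against 7.99, 8.50, 8.74 and 7.07, a difference of -0.82 (SE 0.37, limma adjusted p 0.530). Wild-type replicate 4 was within the knockout range for Art5 and among the highest for Art3, so the family members did not share an order of arrays. A second probe of Art1, below the median on every array, differed by -0.51. Gas6, a secreted ligand of receptor kinases found, like Pmp22, among growth arrest genes, differed by 0.40, and it and Pmp22 were the 2 measured genes of that list of 6.

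The genes whose pattern was nearest to each member were found by the root mean square difference over the 8 arrays after each probe was centred on its own mean. For Pmp22 this was Fbp2, the muscle fructose bisphosphatase, at 0.21 log2 units, against a median of 0.75 over all tested probes. Next came Nudt18, a hydrolase of oxidised nucleotides, at 0.24 and C1qtnf4, a secreted protein, at 0.26. Pde4d, a phosphodiesterase of cyclic AMP, and Phc1, a Polycomb subunit, followed at 0.32 each. Fbp2 was 10.22, 11.66, 10.38 and 10.42 in knockout replicates 1 to 4 and 11.64, 10.86, 11.52 and 11.87 in the wild types. It thus had the Pmp22 pattern of a high knockout replicate 2 and a lowest wild-type replicate 2, at a difference of -0.80. C1qtnf4 differed by -0.79, Phc1 by -1.22, Nudt18 by -0.66 and Pde4d by -0.60, and none of the 5 passed with all arrays. None of them was in the Schwann cell, axon or junction lists, but only tested probes were searched. Pmp22 itself was the single tested gene of the Schwann cell list, so no other could appear. The axon and junction lists had 1 and 3 tested genes, so likeness to the genes of these lists was not tested.

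For Art3 the nearest was Tecr, a reductase of fatty acid elongation, at 0.24, against a median of 0.56. Ddost, a subunit of the enzyme that attaches sugar chains in the endoplasmic reticulum, was at 0.26, and Sms, spermine synthase, at 0.27. B4galt1, a galactosyltransferase of the Golgi, and Gpx3, the secreted glutathione peroxidase, were at 0.27 as well. Tecr was 11.51, 11.18, 10.82 and 10.69 in knockout replicates 1 to 4 and 11.35, 10.29, 11.26 and 11.17 in the wild types, with a difference of 0.03. Its likeness to Art3 therefore lay in the arrays within each genotype and not in the genotype difference. The other 4 differed by -0.25 to -0.12. No gene was among the nearest 5 of both members.

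**Figure D5:**
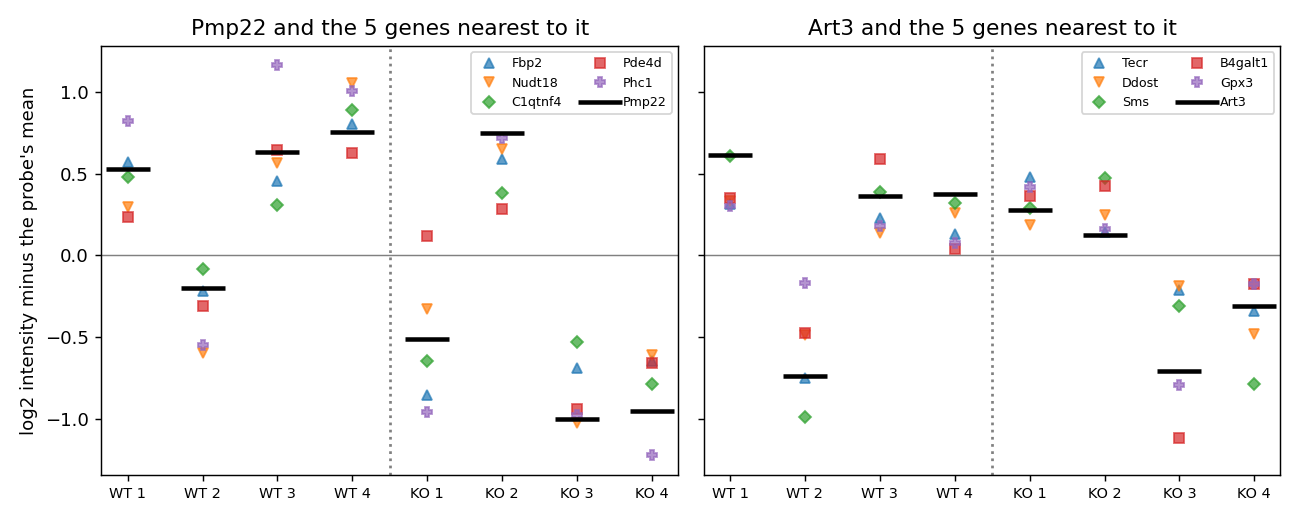
Log2 intensity minus the probe's own mean over 8 arrays (vertical axis) for Pmp22 (left) and the brighter Art3 probe (right), drawn as black bars, and for the 5 genes nearest to each, drawn as coloured symbols, in the wild-type (WT) and Sod1 knockout (KO) replicates. Genes near Pmp22 are high in knockout replicate 2 and in wild-type replicates 1, 3 and 4, and genes near Art3 are low in wild-type replicate 2 and knockout replicates 3 and 4.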

How the data were processed

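Total RNA of EDL muscle was purified with a fibrous tissue kit and amplified to biotinylated cRNA before hybridisation, per the labels' protocols. The values used were the log2 intensities of the series matrix as deposited. All columns hold the same sorted values, from 3.21 to 14.19, so the authors quantile normalized them; the base of the logarithm was judged from this range. How background was corrected and probes were filtered is not stated in these sources. A second table was not used, because its 8 columns match no sample's labels. Quantile normalization hides a shift of all transcripts.

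Of 9232 probes, 8403 had 1 gene symbol, 3 several and 826 none, and the symbols stand for 7053 genes. The genotype difference of each probe came from limma 3.58.1 under R 4.3.3 (lmFit, then eBayes), two-sided, with Benjamini-Hochberg adjustment over the 4698 probes above the array median in at least 4 of the 8 arrays. Where a gene had several probes, the one of highest mean stood for it. The fit was tested on simulated data. Members, lists and the naming rule were chosen with earlier results of these data known. The rule named every Pmp22, Art3 and receptor probe, every relative in the 2 families, at most 4 members of smallest p in a list, and the 5 genes nearest in pattern. Genes described beyond it (Mbp, Cnp, Cldn19, Tubb3, Dpt, Mfap5, Dcn, Pdgfra, Rapsn and Agrn) were chosen after their values were seen. Precision is limited by the number of arrays, with a median SE of 0.21 for a difference.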

Additional observations from a re-analysis of the deposited data

Results flagged for a closer look

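In a group of 4 arrays, 1 array was set apart when its gap to the nearest other array as a share of the group's range exceeded the critical value of Dixon's test. Over 73 probes of the members, the marker and family lists and the nearest genes, 8 of 146 groups met this, or 5.48%, where chance gives about 1 in 20. No probe of Pmp22, Art3 or the receptor subunits did. In knockout replicate 2, Uchl1 was 4.94 with the other knockouts at 8.64 to 8.94. Both Fbp2 at 11.66, with the others at 10.22 to 10.42, and Phc1 at 8.79, with the others at 6.85 to 7.12, were high in the same array, and both had been chosen for their likeness to Pmp22. In wild-type replicate 2, the dimmer Actn3 probe was 11.59 with the others at 12.47 to 12.51, and Cldn19 was 3.75 with the others at 4.06 to 4.12. Mbp was 4.76 in knockout replicate 3 with the others at 6.57 to 6.72. Lyz2 was 4.55 in knockout replicate 1 with the others at 6.21 to 6.39. Cdh5 was 6.89 in wild-type replicate 1 with the others at 7.46 to 7.56.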

How the results depend on the processing

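Pmp22 was lower in the knockout under all 17 alternatives and Art3 under all 19, with adjusted p from 0.00989 to 0.853 and from 0.262 to 0.973. Several alternatives leave the difference itself unchanged, among them the fit without a filter, the replicate block and the exact permutation test. Their direction was fixed in advance, so they bear only on the SE or p. The single change of call was Pmp22 without both arrays numbered 2, at -1.46, and the cause was not tested. Replicate 2 of the knockout was left out for its likeness to the wild types. Replicate 2 of the wild type was left out for its low correlation with the other arrays, and it was the lowest wild type for Pmp22. Leaving out 1 array gave -1.25 to -0.67 for Pmp22 and -0.60 to -0.12 for Art3. With array weights they differed by -1.15 and -0.47. With the stricter filter, above the median in all 8 arrays, Pmp22 was not tested, as it was above the median in 6. The number of probes called was 0 with all arrays, with a smallest adjusted p of 0.219 and 216 lower and 223 higher at an unadjusted p under 0.05. It was 4 with array weights, 59 without both arrays numbered 2, and 0 to 36 when 1 array was left out, with 36 without knockout replicate 2. With the replicate number as a block, Pmp22 differed by -0.86 (adjusted p 0.611) and Art3 by -0.31 (0.814), and the number called was 0. The deviations of same-numbered arrays from their genotype means correlated at -0.28, -0.15, 0.24 and -0.34 for numbers 1 to 4, so the numbers were not used as pairs. By Pearson correlation, 4 of the 5 genes nearest to Pmp22 and 3 of the 5 nearest to Art3 were kept, and with each genotype's own mean taken off, 3 and 1. The mean of both Art3 probes and the marker counts without arrays numbered 2 were added after the data were seen. The fit on that mean gave -0.34.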
